A study of Mus musculus with 48 samples.

Results

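The comparison described here set lung epithelial RNA of 4 mice given bleomycin and treated with 3G9 against that of 3 mice given saline and treated with Axum8, all from batch S151. The labels do not state what Axum8 is, and it is the treatment of the saline and bleomycin control mice of this batch. These 7 libraries were chosen by their labels, out of 48 libraries from 24 mice in the series. The bleomycin control arm of the same batch, bleomycin with Axum8, had 4 mice and entered the same fit. Each arm held 1 female, mouse 226R with 3G9, mouse 225 in the bleomycin control arm and mouse 230 in the saline arm, and the other mice were male. The 3G9 mice were 218, 219, 226R and 228, the bleomycin control mice 204, 206, 208R and 225, and the saline mice 207, 221 and 230. All of these mice carried a RiboTag in the epithelium, per the labels. What drives the tag, the strain, the age of the mice and the time after bleomycin were not stated in the labels. Each mouse also gave a whole lung library, so the epithelial values could be set beside those of the same animals' lungs.

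Bleomycin is a drug that breaks DNA and injures the lung, and it is widely used in mice to bring about alveolar damage followed by fibrosis. The integrin αvβ6 is made by epithelial cells, rises on injured lung epithelium, and activates latent TGFβ, a cytokine that drives matrix production. 3G9 is an antibody that blocks αvβ6 and thereby this route to active TGFβ. A RiboTag mouse makes an HA-tagged ribosomal protein in 1 kind of cell, so that pulling down the tag enriches the RNA that those cells are translating. The libraries came from a kit that sequences the 3′ ends of transcripts, so the number of reads of a gene does not grow with transcript length.

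The deposited table names genes by Ensembl ID alone. Of the 42548 IDs, 0 could be paired with a symbol in the reference used, so lists of lung cell type markers, of TGFβ response genes and of the αvβ6 subunits could not be applied, and the epithelial label could not be checked against its markers. Genes were described instead by their levels, by what bleomycin did to them in other mice, and by their level in epithelium relative to whole lung. Epithelium-enriched genes are the 1601 genes at least 2-fold higher in epithelium than in whole lung in the 3 saline mice of batch S135 with an adjusted p under 0.05. Epithelium-depleted genes are the 2843 genes at least 2-fold lower there, of which 1328 were at least 8-fold lower. In batch S151 the enriched genes held 48.3% to 66.7% of the counts in epithelial libraries, against 16.7% to 36.5% in whole lung libraries.

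Total counts ran from 28236796 to 36057881 in the 3G9 epithelial libraries, from 24751240 to 32465809 in the bleomycin control libraries and from 26809848 to 30722665 in the saline libraries. The correlation of log2 levels between mice of an arm ran from 0.956 to 0.976 with 3G9, from 0.879 to 0.973 in bleomycin controls and from 0.942 to 0.972 in saline mice. Bleomycin control mouse 206 stood apart on the second principal component, which held 18.8% of the variance. Its value was -102, against -8.83 to 27.6 in the other 10 libraries. On the first component, with 33.1% of the variance, saline mice had 35.2 to 92.9 and the other bleomycin libraries -59.5 to -17.7. The epithelial library of mouse 206 had 29.7 there. Calls that changed without this library are given beside the results.

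In the epithelium, 480 genes rose and 144 fell in bleomycin mice with 3G9 relative to saline mice, out of 15532 genes tested. These are 3.09% and 0.927% of the genes tested (edgeR's quasi-likelihood test, adjusted p under 0.05 after Benjamini-Hochberg adjustment over all genes). Together they are 4.02%. The median log2 fold change of all genes tested was 0.00. The genes that rose moved further than those that fell, and their log2 fold changes had medians of 2.31 (range 0.58 to 10.15) and -0.86 (range -2.92 to -0.54). Of the genes that rose, 421 exceeded 2-fold, 282 exceeded 4-fold and 78 exceeded 16-fold, while 45 of the genes that fell exceeded 2-fold and 4 exceeded 4-fold. The plot of fold change against level shows the same asymmetry. Scaling to total counts alone, in place of the TMM factors, gave 1088 genes higher and 12 lower and moved the median of all genes to 0.37, so the split between higher and lower genes depends on the scaling. The total of 624 genes was 276 without saline mouse 207, 284 without saline mouse 221, 299 without 3G9 mouse 218, 384 without 3G9 mouse 219 and 1268 without bleomycin control mouse 206, which enters through the shared estimate of spread.

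**Figure D1:**
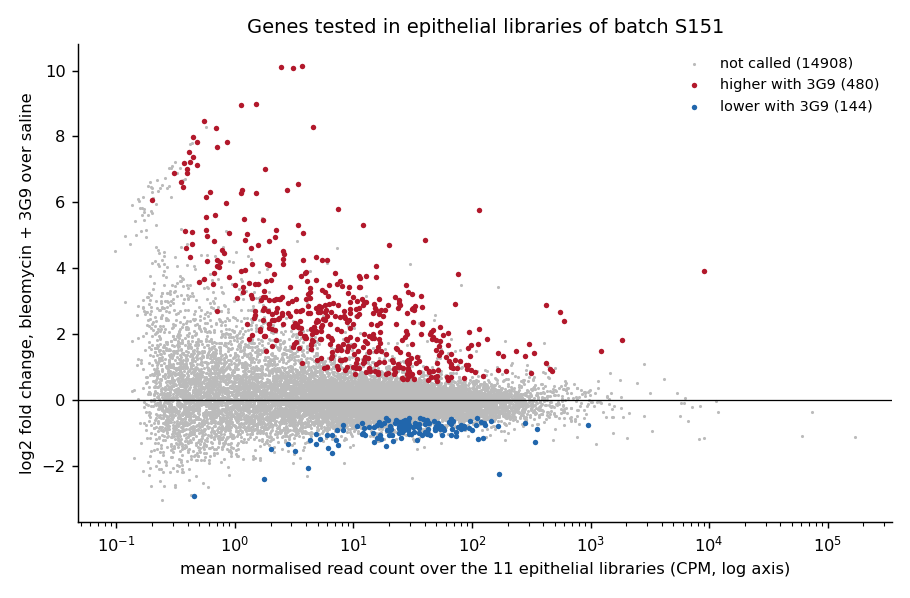
Log2 fold change of bleomycin with 3G9 over saline against the mean normalised read count of each gene over the 11 epithelial libraries of batch S151 (CPM, log axis). Each point is a gene, and the 480 genes that rose reach a log2 fold change of 10.15 while the 144 that fell reach -2.92.

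The genes that rose were mostly of low to middling abundance. Their median level over the 11 libraries was 7.77 CPM (read counts scaled by library total and TMM factor), against 29.1 CPM for the genes that fell. Genes with a mean of 1 to 5 CPM rose most often, 144 of 2831 or 5.09%. Among genes of 100 CPM and over, 24 of 1291 (1.86%) rose and 15 (1.16%) fell, and among genes under 1 CPM 45 of 2435 rose and 1 fell. The counts of the genes that rose were concentrated in a few of them. In the 3G9 libraries 1 gene held 35.1% of the summed CPM of the 480 genes and the 10 most abundant held 62.1%. The groups of mice did not overlap for 478 of the 480 genes that rose and for all 144 that fell. Over all genes tested, every 3G9 library lay above every saline library for 11.7% and below every saline library for 9.21%.

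Some transcripts were seen in the epithelium with 3G9 and had no count in saline epithelium. Of the genes that rose, 22 had no count in any of the 3 saline libraries. In all, 5501 genes had no count there and a count in a bleomycin library of this epithelium, and 74 of them were tested, having passed the filter on low counts through the bleomycin arms alone. A floor of 3 counts summed over the saline arm equals 0.0346 CPM when scaled by library totals alone, without the TMM factors. On that scaling the 22 genes were at least 8.44-fold to at least 144-fold above this floor, with a median bound of 26.4-fold. The TMM factors averaged 1.06 with 3G9 and 0.821 in saline mice, so bounds scaled with them would be lower. The mean level of the 22 genes with 3G9 was at most 4.63 CPM. In the whole lung of these saline mice, 6 of the 22 also had no count. Such floors cover counting error only.

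The largest rise among genes with at least 5 CPM was that of ENSMUSG00000049723. Its level was 13.2, 14.5, 4.56 and 7.83 CPM in 3G9 mice 218, 219, 226R and 228, against 1.22, 1.64, 4.36 and 2.85 CPM in bleomycin control mice 204, 206, 208R and 225, and 0.0908, 0 and 0 CPM in saline mice 207, 221 and 230. Every 3G9 mouse and every bleomycin control mouse lay above every saline mouse, and the lowest 3G9 mouse lay above the highest bleomycin control mouse. The choice of this gene by its fold with 3G9 favours high 3G9 values. The fitted log2 fold change of 3G9 over saline was 8.28 ± 0.89 (SE, adjusted p = 0.000208 in edgeR's test). The saline libraries held 2 counts in all, against 1363 with 3G9, a ratio of 370.3 (95% exact counting interval 102 to 3061). ENSMUSG00000049723 was an epithelium-depleted gene, and its whole lung level was 235 ± 73.1 CPM in 3G9 mice (SD, n = 4) and 5.02 ± 1.85 CPM in saline mice (SD, n = 3).

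ENSMUSG00000082292 had the next largest fold, and 1 mouse set its size. Its level was 29.4 CPM in 3G9 mouse 218 and 1.09, 1.65 and 1.46 CPM in 3G9 mice 219, 226R and 228. Bleomycin control mice 204, 206, 208R and 225 had 0.889, 0.532, 0.963 and 1.31 CPM, and saline mice 207, 221 and 230 had 0, 0.281 and 0 CPM. All 4 values with 3G9 lay above all 3 saline values, and 3 of them were close to the bleomycin control values. The log2 fold change over saline was 6.55 ± 1.52 (SE, adjusted p = 0.0293 in edgeR's test). It was 3.94 without mouse 218, with an adjusted p of 0.0717. Without bleomycin control mouse 206 the adjusted p was 0.0523, and it ran from 0.000556 to 0.201 over the alternatives that gave one. This gene was also epithelium-depleted.

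ENSMUSG00000005547 had the largest fall among genes with at least 5 CPM. Its level was 29.9, 82.8, 96.3 and 125 CPM in 3G9 mice 218, 219, 226R and 228, and 53.9, 176, 65.6 and 49.5 CPM in bleomycin control mice 204, 206, 208R and 225. Saline mice 207, 221 and 230 had 735, 317 and 129 CPM, so the highest 3G9 mouse and the lowest saline mouse nearly met. The log2 fold change was -2.24 ± 0.59 (SE, adjusted p = 0.0496 in edgeR's test), and it was -1.40 without saline mouse 207, with an adjusted p of 0.257. The adjusted p ran from 0.0191 to 0.257 over all alternatives. ENSMUSG00000005547 was an epithelium-enriched gene.

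ENSMUSG00000038065 fell with a smaller spread. It had 1.43, 1.74, 3.44 and 1.79 CPM in 3G9 mice 218, 219, 226R and 228, against 1.93, 4.55, 3.04 and 1.79 CPM in bleomycin control mice 204, 206, 208R and 225, and 8.45, 6.27 and 11.4 CPM in saline mice 207, 221 and 230. Neither bleomycin arm overlapped the saline arm, and the arms given bleomycin overlapped each other. The log2 fold change was -2.06 ± 0.40 (SE, adjusted p = 0.0114 in edgeR's test), and it passed the threshold under each of the 16 alternatives run. ENSMUSG00000038065 was epithelium-depleted, with 17.3 ± 7.30 CPM in whole lung of 3G9 mice (SD, n = 4) and 35.9 ± 9.82 CPM in whole lung of saline mice (SD, n = 3).

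**Figure D2:**
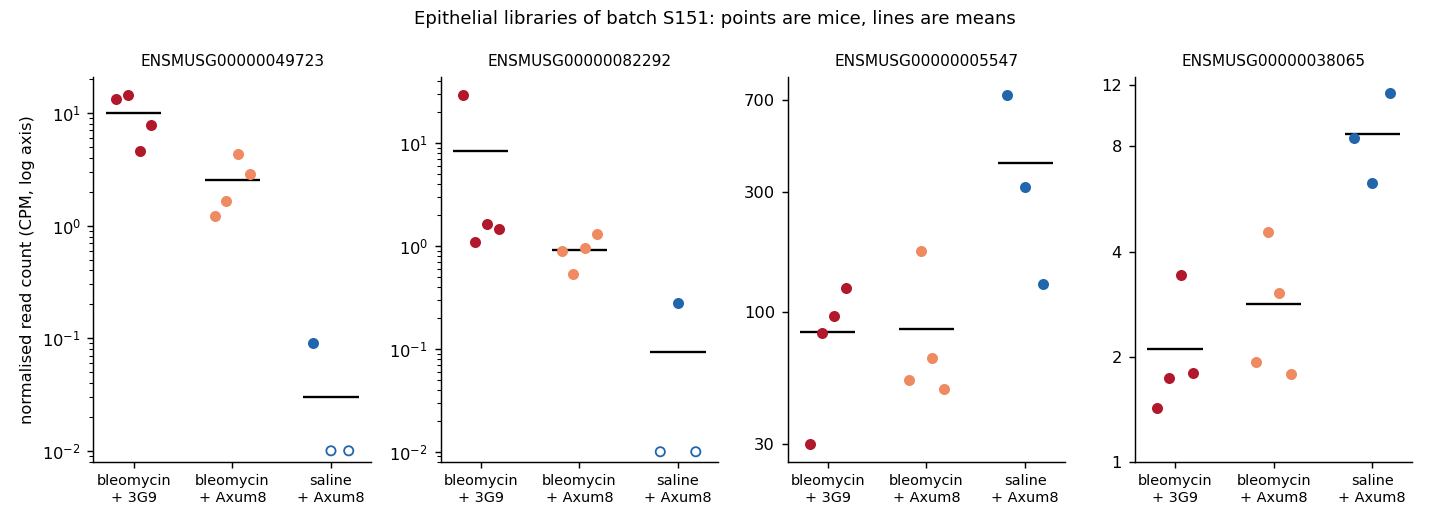
Normalised read count (CPM, log axis) of ENSMUSG00000049723, ENSMUSG00000082292, ENSMUSG00000005547 and ENSMUSG00000038065 in each epithelial library of batch S151, with bleomycin plus 3G9 left, bleomycin plus Axum8 in the middle and saline plus Axum8 right. Points are mice, lines are arm means, open points near the lower edge mark libraries with no count, and mouse 218 alone reaches 29.4 CPM in the second panel.

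By the same rule, the 12 largest folds in each direction were taken from 327 eligible genes that rose and 140 that fell. Ranking on the 3G9 folds favours larger folds with 3G9 than in bleomycin controls. None of the genes taken passed the test between the bleomycin arms. For the 12 that rose, log2 fold changes of 3G9 over saline ran from 4.24 to 8.28, and those of the bleomycin controls over saline ran from 2.37 to 6.29. Of these genes, 5 were epithelium-depleted and none was epithelium-enriched, and 11 also rose in whole lung, beside 5.47% of the 17437 genes tested there. The whole lung libraries came from the same mice, so the choice of genes by their size favours the same direction there. Of all 15532 genes tested, 2396 were depleted and 1575 enriched. Without mouse 218 the log2 fold changes of 3 of the 12, ENSMUSG00000082292 among them, were lower by more than 1, the range was 2.41 to 8.12 and 9 of the 12 passed the test. With 1 mouse of the 2 arms left out at a time, 6 to 12 of the 12 passed. For the 12 that fell, log2 fold changes ran from -2.24 to -1.23 with 3G9, and from -2.19 to -0.59 in the bleomycin controls. Of these, 1 was epithelium-depleted and 2 were epithelium-enriched, and 7 also fell in whole lung, beside 1.61% of the 17437 genes tested there. With 1 mouse left out at a time, 3 to 7 of these 12 passed the test.

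Genes that bleomycin raised in other mice were also higher with 3G9. In batch S135 the epithelium of 2 bleomycin control mice differed from that of 3 saline mice at 213 of 14182 genes tested, with 143 higher and 70 lower. None of those mice is in the 3G9 comparison. Of the 143 raised genes 142 were tested in batch S151, and 76 (53.5%) of them rose with 3G9 relative to saline and 0 fell, beside 3.09% and 0.927% of all genes. Their median log2 fold change was 1.32 (quartiles 0.57 and 2.40), beside 0.00 for all genes tested, and 136 of the 142 were positive. The count of 76 was 44 without saline mouse 207 and 50 without saline mouse 221. In the bleomycin control arm of S151, whose test shares the 3 saline mice, 69 of the 142 genes rose, beside 2.71% of all genes, and the median was 1.24.

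The genes that bleomycin lowered in batch S135 were lower with 3G9 as well, and few of them passed the test. All 70 were tested, 4 (5.71%) fell and 0 rose, beside 0.927% and 3.09% of all genes, and the median log2 fold change was -0.61. In the bleomycin controls of S151, 13 of the 70 fell (18.6%), beside 0.837% of all genes, and the median was -0.77. Of these 70 genes 33 were epithelium-enriched and 0 epithelium-depleted. The raised list held 16 enriched and 30 depleted genes.

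Single mice showed the same order. The median difference of the raised list from the saline mean, on the log2(CPM + 0.5) scale, was 1.62, 1.21, 1.12 and 0.95 in 3G9 mice 218, 219, 226R and 228. It was 1.07, 1.26, 1.14 and 1.33 in bleomycin control mice 204, 206, 208R and 225. Each saline mouse, set against the other saline mice, had -0.12, 0.03 or 0.05. For the lowered list the values were -0.76, -0.67, -0.54 and -0.21 in the 3G9 mice and -0.61, -0.91, -0.73 and -0.74 in the bleomycin control mice, against 0.15, -0.08 and -0.11 in saline mice 207, 221 and 230. Both bleomycin arms lay apart from saline for both lists, and they overlapped each other. Mouse 218 had the highest raised value of the 3G9 mice and the lowest lowered value, and mouse 228 was at the opposite end for both.

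**Figure D3:**
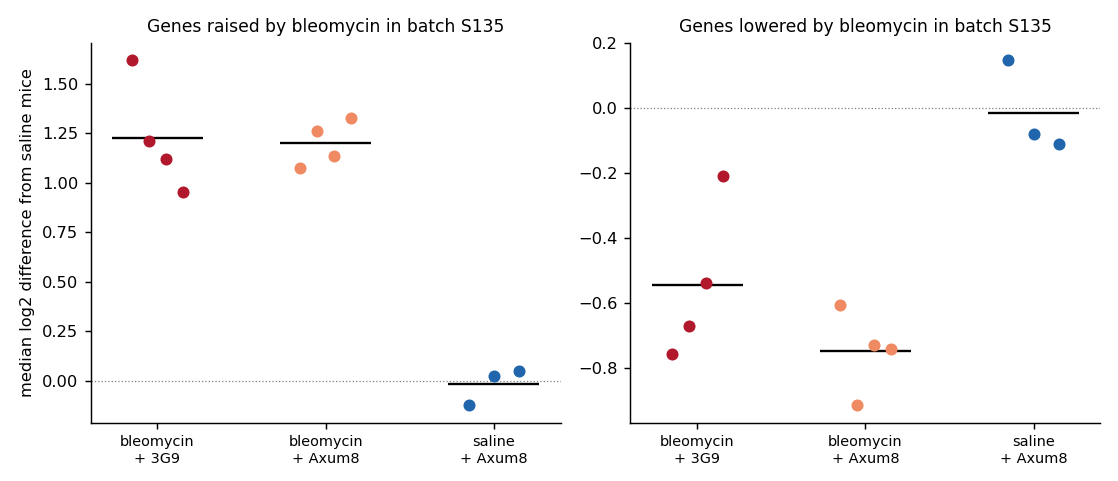
Median log2 difference from saline mice (log2(CPM + 0.5)) of the genes raised (left) and lowered (right) by bleomycin in the epithelium of batch S135, in each epithelial library of batch S151. Points are mice and lines are arm means; 3G9 mice run from 0.95 to 1.62 in the left panel, and mouse 228 with -0.21 lies nearest to saline in the right panel.

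The difference between bleomycin with 3G9 and bleomycin control was tested directly. None of the 15532 genes passed (0%), with a smallest adjusted p of 0.733 in edgeR's test. At an unadjusted p under 0.05 there were 402 genes, fewer than the 776.6 that this threshold gives over 15532 genes with no difference. The test of limma with voom also called 0 genes, and DESeq2 called 11, of which 4 were higher with 3G9. The interval of the difference was narrow for many genes and wide for others. Of the 480 genes that rose with 3G9 relative to saline, 256 had a 95% interval of the difference between the bleomycin arms that lay within 1 log2 unit of 0 on both sides, and so had 128 of the 144 that fell. The same held for 91 of the 142 genes of the S135 raised list and 48 of the 70 genes of the lowered list, and for 10342 of all 15532 genes. For 220 of the 480 genes and 16 of the 144 the interval reached a 2-fold difference, and for 4 of the 480 it lay wholly beyond 2-fold. Of the intervals of all 15532 genes, 5175 reached a 2-fold difference and 15 lay wholly beyond it. The 480 and the 144 genes were chosen on the same 3G9 values, which favours a difference in their direction. These intervals are not adjusted for the number of genes.

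The bleomycin controls, tested against the same saline mice, had 551 genes past the threshold, or 3.55%, with 421 higher and 130 lower. This total was 244 without saline mouse 207, 316 without saline mouse 221, 302 without bleomycin control mouse 225 and 1306 without bleomycin control mouse 206. Over the 480 genes that rose with 3G9, which this choice favours, the median log2 fold change of the bleomycin controls was 2.01 and the median difference between the bleomycin arms was 0.15. Over the 144 that fell, these medians were -0.69 and -0.15. The S135 lists, which were chosen in other mice, had median differences between the bleomycin arms of -0.02 for the raised genes and 0.20 for the lowered genes, beside -0.01 for all genes. Of the lowered genes 53 of 70 (75.7%) were higher with 3G9 than in bleomycin controls. The share was 48.4% of all genes and 58.7% of epithelium-enriched genes. None of these differences passed the test.

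Of the 3 genes with the smallest p between the bleomycin arms, 1 was higher with 3G9. ENSMUSG00000019122 had 27.9, 32.9, 13.4 and 11.8 CPM in 3G9 mice 218, 219, 226R and 228, against 2.44, 3.77, 8.004 and 5.36 CPM in bleomycin control mice 204, 206, 208R and 225. All 3G9 values lay above all bleomycin control values, and the choice of these genes by their smallest p favours such a gap. The log2 difference was 2.13 ± 0.40 (SE, adjusted p = 0.733 in edgeR's test). In saline mice 207, 221 and 230 the gene had 2.77, 2.53 and 4.25 CPM, within the range of the bleomycin controls. ENSMUSG00000019122 was epithelium-depleted, and its whole lung level was 342 ± 97.5 CPM with 3G9, 101 ± 67.1 CPM in bleomycin controls (SD, n = 4 each) and 20.6 ± 3.02 CPM in saline mice (SD, n = 3).

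The other 2 genes were lower with 3G9 than in both other arms. ENSMUSG00000035357 had 6.59, 6.62, 8.21 and 7.37 CPM in 3G9 mice 218, 219, 226R and 228, against 11.7, 18.2, 17.3 and 15.8 CPM in bleomycin control mice 204, 206, 208R and 225 and 10.5, 13.3 and 21.1 CPM in saline mice. Its log2 difference between the bleomycin arms was -1.13 ± 0.23 (SE, adjusted p = 0.733 in edgeR's test). ENSMUSG00000020695 had 16.4, 18.1, 17.0 and 15.2 CPM in the 3G9 mice, against 21.5, 53.3, 45.2 and 34.6 CPM in the bleomycin control mice and 25.3, 41.1 and 35.9 CPM in the saline mice, with a log2 difference of -1.21 ± 0.24 (SE, adjusted p = 0.733 in edgeR's test). The 3G9 values of both genes lay below every value of the other arms, which their choice by smallest p favours. ENSMUSG00000020695 was epithelium-depleted. Relative to saline both fell in the epithelium (adjusted p = 0.0266 and 0.0416 in edgeR's test). The same 3G9 values entered that test, so the choice of these genes favours a fall there.

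A list from the inhibitor arm of the series was also examined. Its bleomycin controls include the 2 bleomycin control mice of S135 that also set the S135 raised and lowered lists, so these lists are not independent. In batches S061 and S135, 5 bleomycin mice were treated with KIRA8, an inhibitor of the stress sensor IRE1α, and 4 genes passed the test against bleomycin controls. The 100 genes with the smallest p in each direction were therefore taken. Of the 100 genes lowest with KIRA8, 99 were tested in batch S151 and 23 (23.2%) rose with 3G9 relative to saline and 0 fell, beside 3.09% and 0.927% of all genes, and the median was 0.58 on the log2 scale. In the bleomycin controls of S151 32 rose (32.3%, beside 2.71% of all genes) and the median was 0.76, and the median difference between the bleomycin arms was -0.06. Of the 100 genes highest with KIRA8, 98 were tested, of which 1 fell (1.02%, near the 0.927% of all genes) and 0 rose with 3G9, and the median was -0.42. In the bleomycin controls of S151 5 of these 98 fell (5.1%, beside 0.837% of all genes) and the median was -0.43.

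**Figure D4:**
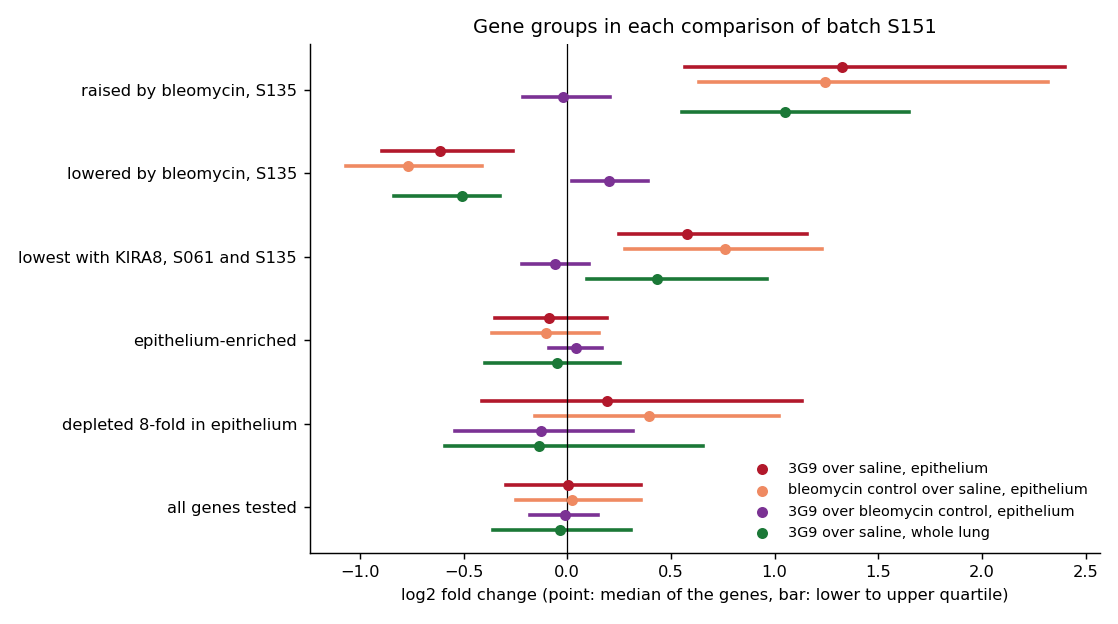
Median (point) and quartiles (bar) of log2 fold changes for gene groups defined in batches S061 and S135, in the comparisons of batch S151. The genes raised by bleomycin in S135 have medians of 1.32 with 3G9 over saline, 1.24 in bleomycin controls over saline and 1.05 with 3G9 over saline in whole lung, and -0.02 between the bleomycin arms.

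The make-up of the epithelial libraries differed between 3G9 and saline mice. The 10 largest genes of each library held 33.2 ± 4.07% of the counts in 3G9 mice (SD, n = 4) and 46.4 ± 6.60% in saline mice (SD, n = 3). In 3G9 mice 218, 219, 226R and 228 this share was 27.1%, 35.4%, 34.2% and 35.9%, against 51.0%, 49.3% and 38.8% in saline mice 207, 221 and 230. Epithelium-enriched genes together held 53.8 ± 3.74% of counts with 3G9 and 63.0 ± 4.95% in saline mice. The number of genes with a count was 18818 to 20441 with 3G9 and 16085 to 18076 in saline mice. The groups did not overlap in any of these measures, and each had p = 0.0286 in a two-sided exact permutation test, the smallest that 4 against 3 mice can give. The TMM factor was 1.06 ± 0.10 with 3G9 and 0.821 ± 0.082 in saline mice, also without overlap. The bleomycin control mice overlapped the 3G9 mice in each of these measures. Their 10 largest genes held 31.3 ± 4.57% of counts and epithelium-enriched genes 51.8 ± 3.07% (SD, n = 4), and their TMM factor was 1.11 ± 0.12. They had 16879 to 20770 genes with a count, a range that overlapped the saline mice.

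As a whole group, genes with less RNA in epithelium than in whole lung held a larger share of each 3G9 library than of each saline library. The values of the most depleted ones overlapped. Genes at least 8-fold depleted in epithelium held 0.747%, 0.514%, 0.366% and 0.410% of counts in 3G9 mice 218, 219, 226R and 228, and 0.377%, 0.445%, 0.792% and 0.437% in bleomycin control mice 204, 206, 208R and 225. Saline mice 207, 221 and 230 had 0.303%, 0.424% and 0.292%, and the 3G9 and saline values overlapped (two-sided exact permutation test, p = 0.171). All epithelium-depleted genes together held 4.63%, 3.40%, 3.13% and 3.33% of counts in 3G9 mice 218, 219, 226R and 228, against 2.31%, 2.73% and 3.03% in saline mice 207, 221 and 230. These values did not overlap, and the two-sided exact permutation test gave p = 0.0571. In whole lung libraries of the batch all epithelium-depleted genes held 16.85% to 23.39%, and those at least 8-fold depleted held 7.70% to 10.4%. Of the 480 genes that rose in the epithelium with 3G9, 95 were epithelium-depleted, 30 were epithelium-enriched and 355 were in neither group, and of the 144 that fell these numbers were 19, 22 and 103. As shares of the genes tested, 3.96% of depleted genes and 1.90% of enriched genes rose, beside 3.09% of all genes, and 0.793% of depleted genes and 1.40% of enriched genes fell, beside 0.927% of all genes. The part of these genes in the comparison was not tested. In such bulk libraries fewer cells of a type and less RNA per cell cannot be told apart.

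Within the epithelial libraries, the 480 genes that rose, which were chosen on these values, held 5.40%, 3.40%, 2.78% and 2.19% of counts in 3G9 mice 218, 219, 226R and 228. They held 3.45%, 3.599%, 2.78% and 3.73% in bleomycin control mice 204, 206, 208R and 225, which the choice did not compare, and 0.534%, 0.594% and 0.775% in saline mice 207, 221 and 230. The bleomycin control mice lay within the range of the 3G9 mice.

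**Figure D5:**
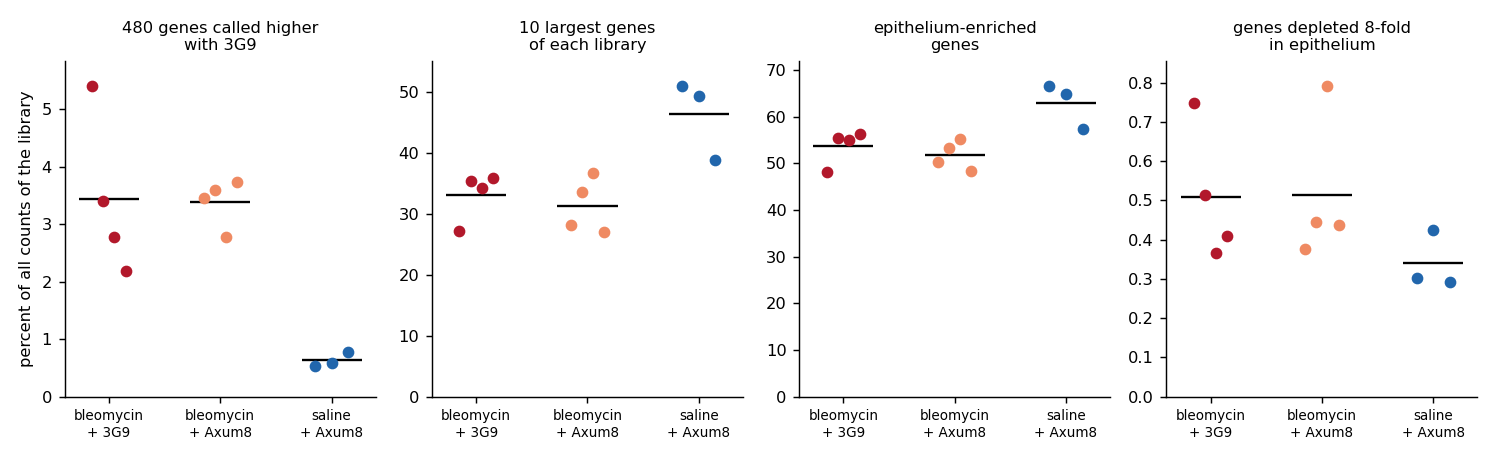
Percent of all counts of each epithelial library of batch S151 held by the 480 genes that rose with 3G9, by the 10 largest genes of the library, by epithelium-enriched genes and by genes at least 8-fold depleted in epithelium. Points are mice and lines are arm means; the 10 largest genes hold 27.1% to 35.9% with 3G9 and 38.8% to 51.0% in saline mice.

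In the whole lung of these animals, 953 genes rose and 280 fell with 3G9 relative to saline, or 5.47% and 1.61% of 17437 genes tested and 7.07% in all. The bleomycin controls had 405 genes higher (2.32%) and 71 lower (0.407%) in whole lung, 2.73% in all. Both tests share the saline mice, and no test between the bleomycin arms in whole lung is given here. The total of 1233 was 250 without saline mouse 207, 272 without saline mouse 221, 701 and 541 without 3G9 mice 218 and 219, and 2255 without 3G9 mouse 228. Of the 480 genes that rose in the epithelium, 479 were tested in whole lung and had a median of 1.44 on the log2 scale. The 144 that fell had a median of -0.58 in whole lung. Of the 143 genes raised by bleomycin in the epithelium of batch S135, 88 (61.5%) rose in whole lung with 3G9 and the median was 1.05. Of the 70 lowered genes, 5 fell and 1 rose in whole lung, and the median was -0.51.

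The change from saline to bleomycin with 3G9 was compared between the 2 libraries of each mouse. The compartment difference, epithelium minus whole lung, passed the test for 7 of 17843 genes (0.0392%), all 7 above 0, in edgeR's test with the mouse as a block. Over all genes tested its median was 0.09 on the log2 scale, and 58.4% of genes were above 0. At an unadjusted p under 0.05 there were 1507 genes, more than the 892.15 that this threshold gives over 17843 genes with no difference. The fit with no replicate block called 1 gene, and leaving out 1 mouse at a time gave 1 to 14. It gave 1 without saline mouse 207, 3 without saline mouse 221, 2 without 3G9 mouse 218 or 219, 12 without saline mouse 230 and 14 without 3G9 mouse 228. Genes below 0 were called as well in the last of these fits, 2 of the 12 without mouse 230 and 5 of the 14 without mouse 228. Of the 7 genes, 5 were epithelium-depleted and 0 epithelium-enriched, beside 2651 and 1578 of the 17843 genes tested. Their median log2 fold change of 3G9 over saline was 2.64 in epithelium and 0.49 in whole lung. Per the labels, 1 extraction protocol served both compartments, and any difference in their preparation was not stated.

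The 2 largest compartment differences came from genes that fell in whole lung. ENSMUSG00000024008 had 2.12, 1.06, 1.12 and 0.730 CPM in the epithelium of 3G9 mice 218, 219, 226R and 228, against 0.545, 0.795 and 0.571 CPM in saline mice 207, 221 and 230, and the groups overlapped. In whole lung it had 1.62, 1.13, 1.37 and 1.36 CPM with 3G9, against 10.2, 14.1 and 7.48 CPM in saline mice, and the groups lay far apart. Its log2 fold change was 0.98 ± 0.56 in epithelium (SE, adjusted p = 0.359) and -2.95 ± 0.29 in whole lung (SE, adjusted p = 0.000418), a difference of 3.84 ± 0.54 (SE, adjusted p = 0.0179, all in edgeR's test). The difference passed the test under 5 of 9 alternatives, with adjusted p from 0.0121 to 0.134, and lost its call without 3G9 mouse 218 or 219 and without saline mouse 207 or 221.

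ENSMUSG00000061397 had 5.69, 1.64, 3.44 and 5.84 CPM in the epithelium of 3G9 mice 218, 219, 226R and 228, against 6.00, 19.3 and 2.64 CPM in saline mice 207, 221 and 230. In whole lung it had 1.74, 0.906, 1.88 and 3.46 CPM with 3G9, against 39.1, 60.6 and 22.9 CPM in saline mice. The epithelial values overlapped and the whole lung values lay apart. Its log2 fold change was -1.16 ± 0.55 in epithelium (SE, adjusted p = 0.275) and -4.37 ± 0.45 in whole lung (SE, adjusted p = 0.000632), a difference of 3.55 ± 0.37 (SE, adjusted p = 0.00203, all in edgeR's test). The difference passed under 7 of 9 alternatives, with adjusted p from 0.00105 to 0.244, and lost its call with no replicate block and with voom and a random block. Both genes were epithelium-depleted.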

How the data were processed

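The values deposited by the authors are raw read counts of each Ensembl gene in each library. STAR 2.5.2b and the GRCm38 build are named in the submitters' processing notes. The counting program and annotation release were not stated, so genes that share reads with a copy or an overlapping gene could not be marked. Columns were matched to samples by the mouse number and compartment letter, and 0 were left unused. The whole lung column of 3G9 mouse 218 has letters after its number that no label explains. Of 42548 genes, 17514 had no count in the S151 epithelium.

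Counts were analysed in R 4.3.3 with edgeR 4.0.16 (TMM scaling, filterByExpr on arm with a minimum count of 10, robust quasi-likelihood test). The 11 epithelial libraries of batch S151 shared a fit, and so did the 11 whole lung libraries. Standard errors were derived from each log2 fold change and its F statistic. The 22 libraries together gave the compartment difference, with the mouse as a block because the labels give both libraries of an animal the same mouse number; the arms hold different mice and are not paired. The biological coefficient of variation was 0.319 in epithelium. DESeq2 1.42.0, limma 3.58.1 (voom), other scalings and filters, sex as a term, other sets of libraries and leaving out each mouse were alternatives.

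Genes were named by this rule: the 12 largest folds in each direction among genes with an adjusted p under 0.05 and at least 5 CPM in the higher arm, the 3 smallest p between the bleomycin arms, and the largest compartment differences. The rule also asked for a symbol and for members of symbol lists, which could not be applied, and at most 2 IDs per direction are printed. The comparison and the lists were chosen with earlier results of these data known. Labels give separate mouse numbers, so replicates are mice.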

Additional observations from a re-analysis of the deposited data

Results flagged for a closer look

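Among 34 sets of 4 mice tested for a mouse far from the others of its arm, 6 were marked. Chance marks about 1 in 20 of independent sets. These sets were not independent, because several are linked measures of the same libraries and the genes were chosen for a large fold or small p. The 6 can therefore not be set against that rate. In 3G9 mouse 218, ENSMUSG00000082292 had 29.4 CPM, against 1.09 to 1.65 CPM in the other 3G9 mice. The same library had a TMM factor of 1.21, against 0.999 to 1.01, and epithelium-enriched genes held 48.3% of its counts, against 55.1% to 56.4%. In bleomycin control mouse 208R, genes at least 8-fold depleted in epithelium held 0.792% of counts, against 0.377% to 0.445% in the other bleomycin control mice, and the 144 genes that fell with 3G9 held 0.661%, against 0.719% to 0.731%. Bleomycin control mouse 206 had 176 CPM of ENSMUSG00000005547, against 49.5 to 65.6 CPM in the other bleomycin control mice.

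The change from saline to bleomycin with 3G9 differed between epithelium and whole lung, by the test of the difference itself, for ENSMUSG00000024008 (3.84 on the log2 scale, epithelium minus whole lung) and ENSMUSG00000061397 (3.55). ENSMUSG00000024008 lost its call under 4 of 9 alternatives, and ENSMUSG00000061397 under 2, the fit with no replicate block among them.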

How the results depend on the processing

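Scaling to total counts alone and leaving out bleomycin control mouse 206 from the 3G9 comparison were chosen after the data were seen. The number of genes past the threshold for 3G9 over saline in epithelium, 624 (76.9% higher), was 1352 with DESeq2 (71.3% higher), 1119 with limma voom (58.0%), 1100 with total-count scaling (98.9%), 1268 without mouse 206 (65.3%) and 276 to 588 with 1 mouse of the 2 arms left out. It stayed within 1.5 times with upper-quartile scaling (652), no filter (573), sex as a term (640), the 2 arms alone (880) and all 24 epithelial libraries (734). Bleomycin control over saline, 551, was 1282 with DESeq2, 1939 with voom, 1626 with total-count scaling (98.6% higher), 321 with the 2 arms alone and 244 to 1306 with 1 mouse left out. Between the bleomycin arms DESeq2 called 11 genes and each other alternative 0. Whole lung, 1233, was 2676 with DESeq2, 6174 with voom (48.6% higher), 388 with the 2 arms alone and 250 to 2255 with 1 mouse left out. Members of the S135 raised list that rose, 76, were 44 to 83, while its median stayed between 1.11 and 1.39 and that of the lowered list between -0.73 and -0.47. The cause of these changes was not tested.

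The mouse pairs the 2 libraries of an animal: the compartment difference, 7 genes with the mouse as a block, was 1 with no replicate block, 1 with voom and a random block, and 1 to 14 with 1 mouse left out. All 7 were above 0, while 2 of 12 were below 0 without saline mouse 230 and 5 of 14 without 3G9 mouse 228. No paired analysis was possible within the epithelium because the arms hold different mice. ENSMUSG00000049723 and ENSMUSG00000038065 passed under all 16 alternatives, ENSMUSG00000005547 lost its call under 10, and ENSMUSG00000082292 under 8 of 15, DESeq2 having given it no adjusted p. None of these named genes changed direction.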
